A study of Mus musculus with 2 samples.

Results

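The 10 genes described here make, load and control MHC class II, and they were chosen by symbol from the 32285 genes of the deposited tables. They comprise the chain genes H2-Aa, H2-Ab1 and H2-Eb1, the invariant chain Cd74, the H2-M genes H2-DMa, H2-DMb1 and H2-DMb2, the H2-O genes H2-Oa and H2-Ob, and the regulator Ciita. Their levels were followed across marker-gated cell types of livers scarred with CCl4 (carbon tetrachloride), a liver toxin whose repeated injection causes fibrosis. Non-parenchymal cells, the liver's cells apart from hepatocytes, were isolated from Mfap2+/+ mice (wild type) and Mfap2-/- mice (knockout). Mfap2 encodes a protein of extracellular microfibrils. Both genotypes had received CCl4 intraperitoneally for 8 weeks, and no untreated group was analysed here. There was 1 droplet library of each genotype. The labels used here give neither the number, age, sex nor strain of the mice.

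MHC class II molecules are pairs of an alpha and a beta chain on the surface of B cells, dendritic cells and macrophages, which show peptides from endocytosed protein to CD4+ T cells. The invariant chain binds new class II pairs, fills their groove and leads them to endosomes. There H2-M exchanges the last invariant chain fragment for other peptides, and H2-O binds H2-M and holds it back. CIITA is a co-activator that does not bind DNA itself. It is recruited by RFX, CREB and NF-Y factors that sit on the X and Y boxes shared by promoters of this pathway. Kupffer cells are the resident macrophages of the liver sinusoids, and monocyte-derived macrophages join them in injured liver.

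Of the members, 8 lie in the MHC on chromosome 17, from 34092340 at the start of H2-Oa to 34316674 at the end of H2-Eb1 (GRCm38, GENCODE M21). Ciita lies on chromosome 16 from 10480059 to 10528418. Promoter entries of RefSeq on GRCm38.p6 matched 7 of the 10 members, with 8 promoters. The entries span 250 bases before to 50 after a gene's start. H2-Ab1, Cd74 and Ciita had none. Stretches of the H2-Eb1, H2-Ob, H2-DMb2 and H2-Aa promoters are shown to let the X and Y boxes be seen, 5′ to 3′ on the gene's strand from base -130 to -31. Capitals mark the Y box, spelled CCAAT, or ATTGG where it lies on the opposite strand. They also mark AACNNATG, taken here as the core of the X box. They lie at chr17:34305737-34305836 (+), chr17:34238775-34238874 (+), chr17:34145119-34145218 (+) and chr17:34287854-34287953 (-).
H2-Eb1: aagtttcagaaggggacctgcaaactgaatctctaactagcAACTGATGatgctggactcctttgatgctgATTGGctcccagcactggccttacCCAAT
H2-Ob: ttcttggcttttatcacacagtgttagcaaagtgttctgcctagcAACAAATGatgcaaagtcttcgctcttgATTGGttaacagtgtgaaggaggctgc
H2-DMb2: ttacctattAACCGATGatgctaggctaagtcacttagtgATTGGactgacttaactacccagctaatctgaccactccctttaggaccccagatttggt
H2-Aa: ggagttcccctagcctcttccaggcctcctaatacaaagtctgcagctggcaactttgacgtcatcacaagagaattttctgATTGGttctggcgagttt

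In H2-Eb1, H2-Ob and H2-DMb2, which encode a classical beta chain, the H2-O beta chain and an H2-M beta chain, the core stood 22, 20 and 23 bases from a Y box. H2-DMb1, the other H2-M beta chain, also had both boxes, 23 bases apart. H2-Aa and H2-Oa held a Y box without these core letters, and neither H2-DMa entry held the pair. Both strands were searched in whole entries, and although the letters of the 2 motifs can overlap, boxes at the spacing used do not. A Y box occurred in 37.4% of all 32841 promoter entries and the core in 8.87%. The pair 15 to 30 bases apart occurred in 219 entries, or 0.667%. The letters and spacing were chosen after these sequences had been viewed, so the matches are a description. A missing match says only that these letters are not in this window.

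The matrices held 11783 wild-type and 12872 knockout barcodes, with medians of 4685 and 6511 UMIs (unique molecular identifiers, each standing for 1 captured RNA molecule). After filters and removal of likely doublets, 10336 and 11428 cells remained. Of the barcode sequences, 40 occurred in both libraries. Levels are UMIs per 1000000 UMIs of a type (CPM), summed over its cells. Fewer cells with class II RNA and less RNA per cell cannot be told apart in such sums. A type is named for the marker gate its cells passed, so Kupffer cells and the others are Kupffer-like and so on. Mfap2 stood at 61.2 CPM in wild-type and 0.4 CPM in knockout mesenchymal cells. With 1 library per genotype no test was possible, and genotype, animal and library cannot be told apart. Intervals are at 95% and cover counting error only. A member counts as higher or lower where its CPM differed at least 1.5-fold, given at least 20 UMIs over both libraries. Which strand was counted and how intron reads were treated are not given in the sources used here.

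T and NK cells, which make little or no class II in mice, served as a measure of free class II RNA in droplets. In the wild type, H2-O genes made up 22.4% of H2-O and H2-M UMIs in these cells and 14.4% in endothelial cells. In the knockout the shares were 21.5% and 15.8%. The measure may thus vary by gene and cell type, and whether T and NK cells made part of this RNA was not tested. The 10 members together stood at 862 CPM in wild-type and 1405 CPM in knockout T and NK cells, a log2 ratio of 0.70 (0.66 to 0.74). Over all cells the sum stood at 5956 and 8209 CPM. Values in pairs are given in this order, wild type first. Of the 10 members, 6 were at least 1.5-fold higher in knockout T and NK cells, where 15.7% of all genes tested were, and none was lower, where 5.45% were.

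Class II RNA was highest in conventional dendritic cells. The summed level in type 2 conventional dendritic cells (cDC2, 87 and 185 cells) was 32143 and 28681 CPM. Type 1 cells (cDC1, 125 and 138 cells), which cross-present to CD8+ T cells, had 29932 and 27678 CPM. Migratory dendritic cells followed, with 18862 and 20913 CPM over 23 and 31 cells. B cells (945 and 1560 cells) had 14019.9 and 12910.1 CPM.

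Among macrophages the order depended on the resident marker Clec4f. Clec4f-negative macrophages (1202 and 1212 cells) had 10787 and 14918 CPM, so they stood below B cells among wild-type and above them among knockout cells. Kupffer cells (461 and 324 cells) had 3859 and 6733 CPM. Plasmacytoid dendritic cells, which make type I interferon, had 6042 and 7081 CPM over 27 and 70 cells. The Clec4f-negative level was 2.80 times the Kupffer level for wild-type and 2.22 times for knockout cells.

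Monocytes and endothelial cells lay near the free RNA measure. Classical monocytes (276 and 216 cells) had 1291 and 1615 CPM. Patrolling monocytes (536 and 787 cells) had 988 and 1764 CPM, and sinusoidal endothelial cells (489 and 875 cells) had 901 and 1221 CPM. The sinusoidal level was 1.04 and 0.87 times that of T and NK cells. Vascular endothelial cells (159 and 112 cells) had 736 and 1359 CPM, below T and NK cells, though within counting error for the knockout. The wild-type intervals of sinusoidal and of T and NK cells overlapped. A small class II level of endothelium was not detectable over this background.

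**Figure D1:**
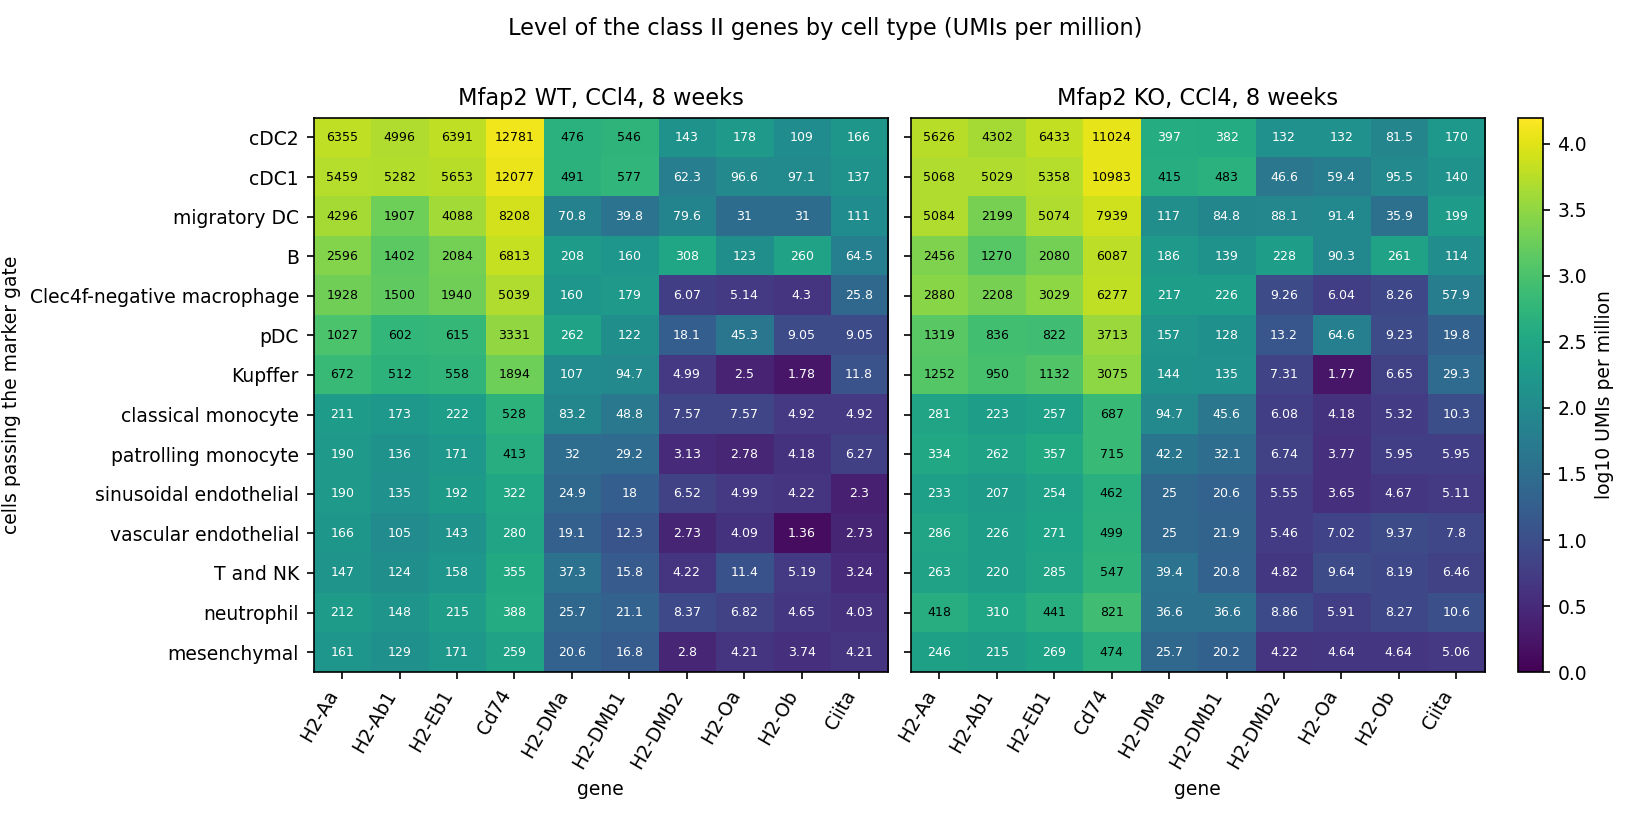
Level of each of the 10 members (columns) in each gated cell type (rows) of the wild-type and the knockout library, as log10 of UMIs per 1000000. The chain genes and Cd74 are brightest in cDC1 and cDC2, and H2-DMb2, H2-Oa and H2-Ob drop from B and dendritic cells to macrophages by more than the other members do.

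Knockout and wild type differed little in the cells with most class II RNA, and differed more in macrophages. The summed log2 ratio of knockout over wild type was -0.12 (-0.13 to -0.10) in B cells, -0.11 (-0.13 to -0.10) in cDC1 and -0.16 (-0.19 to -0.14) in cDC2. It was 0.80 (0.78 to 0.83) in Kupffer cells and 0.47 (0.46 to 0.48) in Clec4f-negative macrophages. With types taken from clusters rather than gates, the cDC2 value turned to 0.077. With cells thinned to 1000 UMIs before gating, the cDC1 value was -0.014.

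The chain genes of B cells were close between libraries. H2-Aa, the alpha chain of I-A, stood at 2596 and 2456 CPM. H2-Ab1, its beta partner, stood at 1402 and 1269.7 CPM. H2-Eb1, the beta chain of I-E, stood at 2084 and 2079.5 CPM, within counting error of each other. The I-E alpha chain gene H2-Ea was not in the gene table used here, so the RNA of its partner could not be set beside H2-Eb1. Cd74 stood at 6813 and 6087 CPM in B cells, a log2 ratio of -0.16 (-0.18 to -0.14).

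In B cells 1 of 10 members, Ciita, was at least 1.5-fold higher in the knockout, where 13.8% of all genes were. None was lower by that size, against 5.9% of all genes. The median of the members was -0.15, beside 0.10 over all 11959 genes tested. The ratio of all genes moved with gene span: its median in B cells was -0.17 for genes under 10 kb, 0.04 from 10 to 30 kb, 0.16 from 30 to 70 kb and 0.28 above 70 kb. H2-Aa (5.08 kb) and Cd74 (8.81 kb) fall in the shortest of these classes, with B cell ratios of -0.08 and -0.16. H2-Eb1 (10.8 kb) and H2-Ab1 (11.7 kb) fall in the next, with ratios of -0.00 and -0.14. The part of gene span in these ratios was not tested.

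In cDC1 the chains were also close, at 5459 and 5068 CPM for H2-Aa, 5282 and 5029 for H2-Ab1 and 5653 and 5358 for H2-Eb1. H2-Oa alone was at least 1.5-fold lower, where 4.8% of all genes were, and no member was higher, where 18.6% were. The members' median was -0.12 beside 0.15 for all genes. In cDC2 no member passed 1.5-fold in either direction, where 20.6% of all genes were higher and 11.1% lower. H2-Eb1 stood at 6391 and 6433 CPM there, and Cd74 at 12781 and 11024 CPM. The median over all genes under 10 kb was -0.07 in cDC1 and -0.23 in cDC2.

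The rarer dendritic types rested on few cells. In migratory dendritic cells H2-Aa stood at 4296 and 5084 CPM and H2-Eb1 at 4088 and 5074 CPM, while Cd74 stood at 8208 and 7939. Of 9 members tested there, 4 were at least 1.5-fold higher (Ciita, H2-DMa, H2-DMb1 and H2-Oa), where 24.6% of all genes were, and none was lower, where 16.7% were. In plasmacytoid cells H2-DMa was lower, at 262 and 157 CPM, as 1 of 7 members tested, where 14.7% of all genes were, and none was higher, where 17.5% were. The 3 chain genes had log2 ratios of 0.36 to 0.47, each under 1.5-fold.

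In Kupffer cells every chain gene and Cd74 stood higher in the knockout. H2-Aa stood at 672 and 1252 CPM, a log2 ratio of 0.90 (0.84 to 0.96). H2-Ab1 stood at 512 and 949.6 CPM, a ratio of 0.89 (0.82 to 0.96). H2-Eb1 stood at 558 and 1132 CPM, with the largest ratio of the 3 chains, 1.02 (0.96 to 1.09). Cd74 stood at 1894 and 3075 CPM, a smaller ratio of 0.70 (0.66 to 0.74). In T and NK cells the same 4 genes had ratios of 0.84, 0.82, 0.85 and 0.62. Over the alternatives run, the lowest of each were 0.56, 0.51, 0.51 and 0.36, and the highest 0.86, 0.82, 0.85 and 0.62. The level of these genes in T and NK cells was low, at 147 and 263 CPM for H2-Aa. With each library's T and NK level subtracted, the Kupffer ratio of the sum was 0.83.

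Of the 10 members, 6 were at least 1.5-fold higher in knockout Kupffer cells and none was lower, where 16.8% of all genes were higher and 7.62% lower. The median over the members was 0.79 and over all genes 0.08. By span, the Kupffer median of all genes was -0.13 under 10 kb and -0.017 from 10 to 30 kb. The 6 were the 3 chains, Cd74, Ciita and H2-Ob, the last on 10 and 30 UMIs. The Kupffer level of H2-Ob lay below that of T and NK cells in both libraries, where it had 48 and 85 UMIs.

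In Clec4f-negative macrophages the same genes stood higher, by less. H2-Aa stood at 1928 and 2880 CPM, a log2 ratio of 0.58 (0.56 to 0.60). H2-Ab1 stood at 1500.2 and 2208 CPM (0.56, 0.53 to 0.58), and H2-Eb1 at 1940 and 3029 CPM (0.64, 0.62 to 0.67). Cd74 stood at 5039 and 6277 CPM, with a ratio of 0.32 (0.30 to 0.33). H2-Eb1, Ciita, H2-DMb2 and H2-Ob were past 1.5-fold, 4 of 10 members where 18.1% of all genes were, and none was lower, where 5.66% were. H2-Ob had 51 and 123 UMIs there, a level below T and NK cells in the wild type and near them in the knockout. The members' median was 0.57 and that of all genes 0.13, with -0.12 for genes under 10 kb and 0.034 for those of 10 to 30 kb.

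The cells with several scar-associated markers such as Trem2 and Gpnmb, 533 wild-type and 552 knockout cells drawn from these macrophages, had 9487 and 13562 CPM in sum. H2-Eb1 stood at 1708 and 2686 CPM there. Of their 10 members 5 were at least 1.5-fold higher, where 17.5% of all genes were, and none was lower, where 5.19% were. The ratio of their sum, 0.52, was 0.074 with 1 marker more per gate and turned to -0.24 with cells thinned to 1000 UMIs before gating, on 27 and 16 cells.

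**Figure D2:**
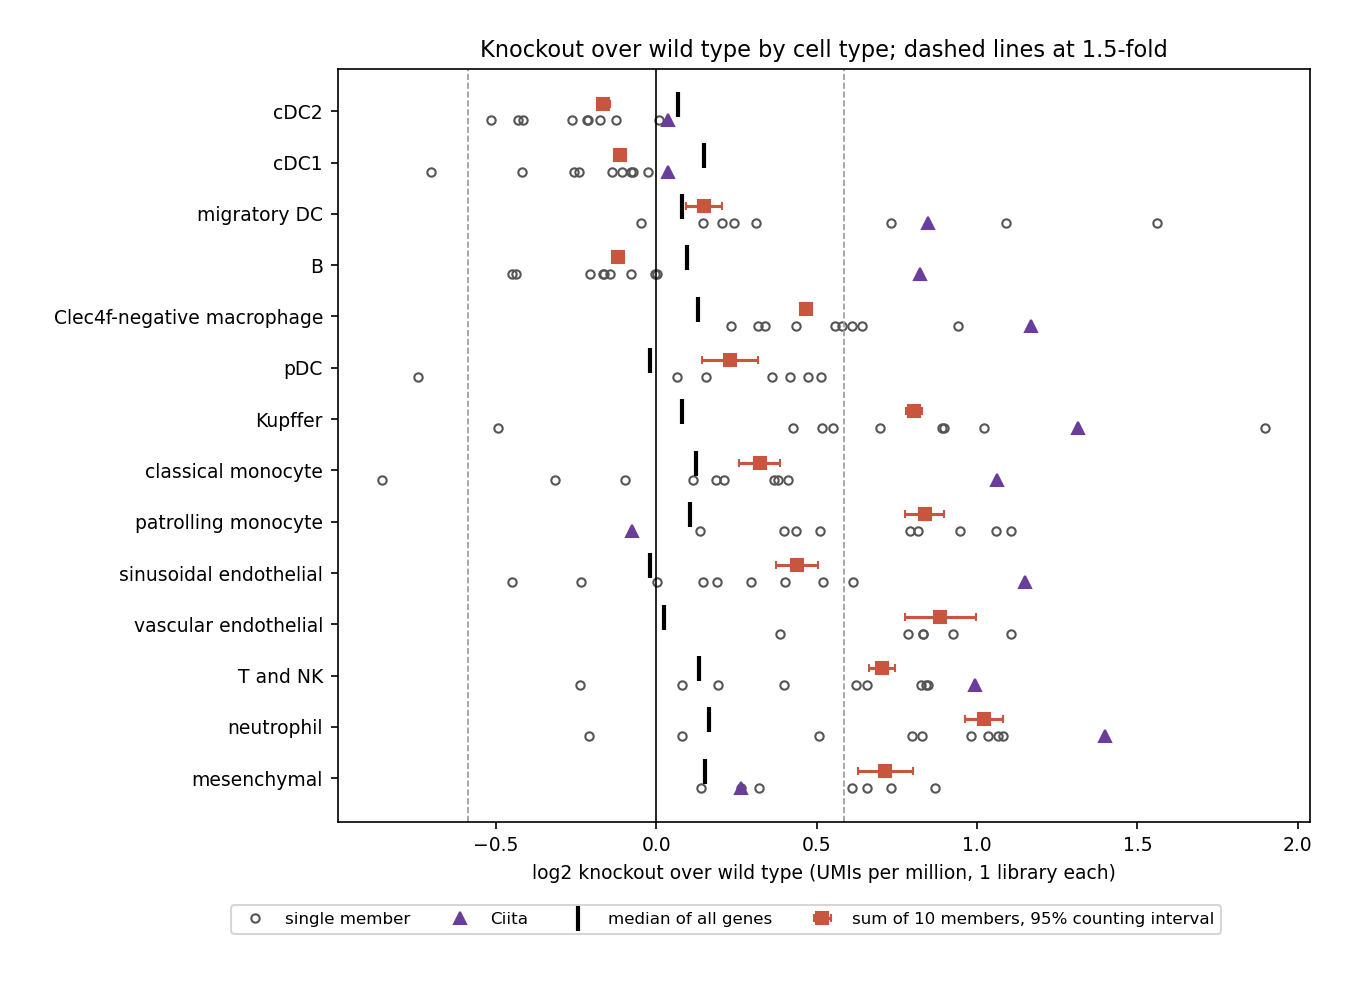
Log2 ratio of knockout over wild type by cell type, for single members with enough UMIs (circles), Ciita (triangles), the sum of all 10 (squares, with a 95% counting interval) and the median of all genes (bars). The sums of B cells, cDC1 and cDC2 lie between -0.16 and -0.11, those of Kupffer cells and Clec4f-negative macrophages at 0.80 and 0.47, and the triangle of B cells lies apart from its other members.

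Counted per cell, more macrophages of the knockout carried class II RNA. Each cell was thinned to 1000 UMIs so that depth did not enter; the median depth was 12028 and 14409 UMIs in Kupffer cells and 9773.5 and 12142 in Clec4f-negative macrophages. The median Kupffer cell had 2 and 4 class II UMIs. The share of Kupffer cells with at least 10 was 9.54% (7.02 to 12.6) and 25.9% (21.2 to 31.1). In Clec4f-negative macrophages the median was 6 and 12 UMIs, and that share was 40.1% (37.3 to 42.9) and 56.4% (53.6 to 59.2).

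B cells differed the other way, with 86.1% (83.7 to 88.2) of wild-type and 77.8% (75.7 to 79.9) of knockout cells at 10 UMIs or more. The median B cell had 14 and 13 UMIs. Of T and NK cells, 0 of 1364 wild-type cells reached 10 UMIs, which allows a share of up to 0.22% (3 counts), and 4 of 1291 knockout cells did. Counted without thinning, so that depth enters, the wild-type UMIs of the macrophages were the more concentrated. The richest 10% of Kupffer cells held 45.8% and 34.7% of their class II UMIs, and those of Clec4f-negative macrophages held 40.1% and 30.5%. In B cells the richest 10% held 19.5% and 19.1%.

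The share of cells with any Cd74 UMI at 1000 UMIs was 60.1% (55.5 to 64.6) and 76.2% (71.2 to 80.8) in Kupffer cells, and 96.3% and 97.2% before thinning. In T and NK cells, with median depths of 6266 and 7201 UMIs, it was 29.5% and 39.0% thinned, and 83.2% and 93.6% unthinned. The share in Kupffer cells was above this background in both libraries.

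**Figure D3:**
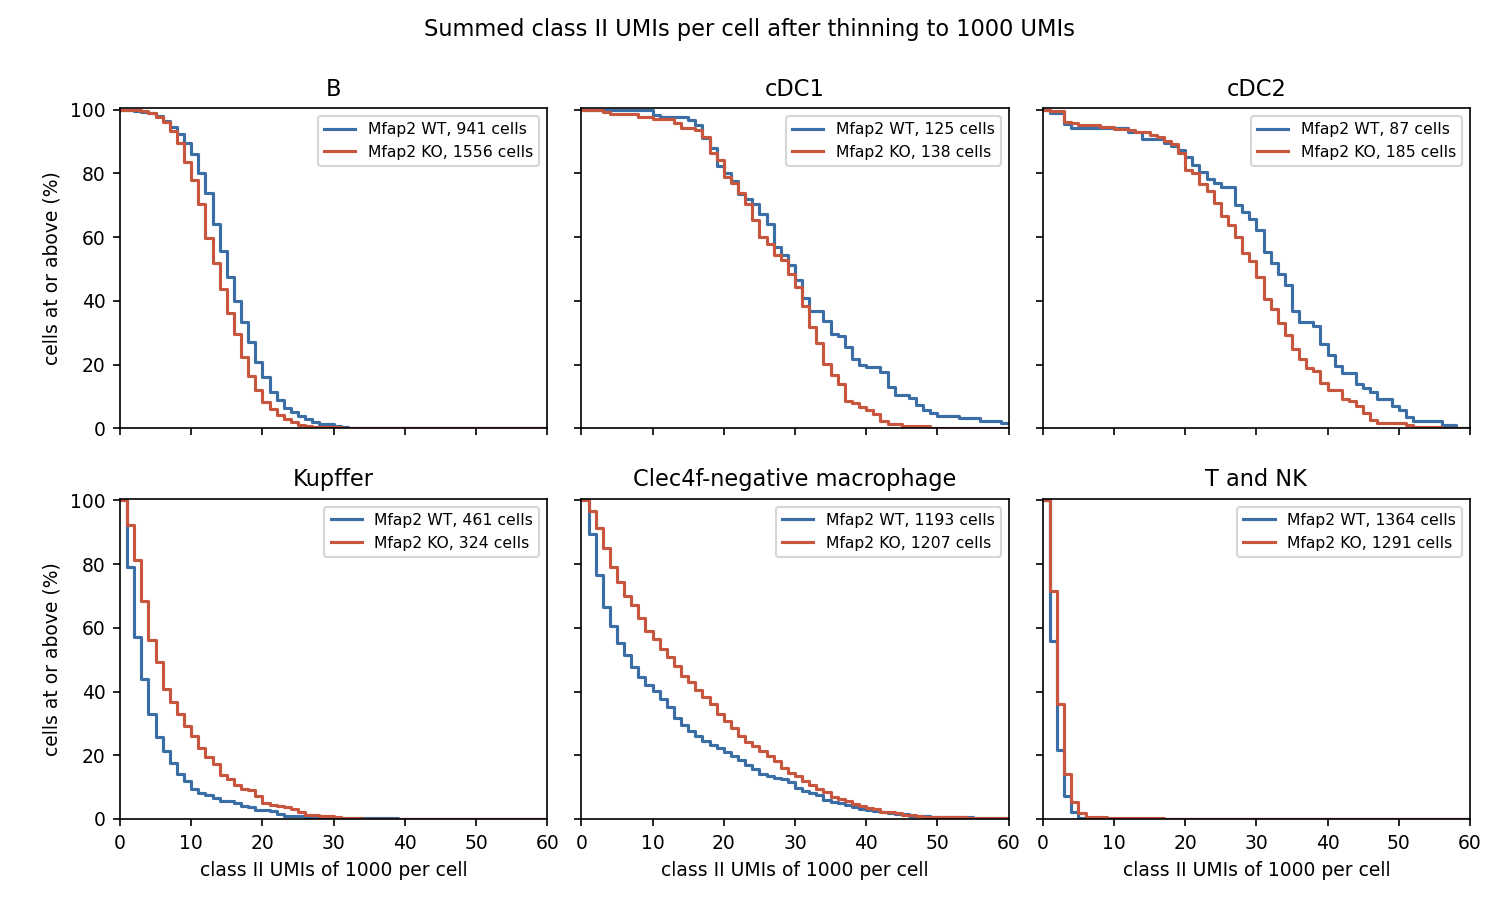
Share of cells (%) at or above each number of summed class II UMIs (drawn up to 60), after thinning every cell to 1000 UMIs, in 1 panel per cell type with a line for each library. The knockout lines of Kupffer cells and Clec4f-negative macrophages lie above the wild-type lines, at 25.9% against 9.54% and 56.4% against 40.1% at 10 UMIs, and T and NK lines fall to near 0 before 10.

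The make-up of the macrophages differed between libraries too. When all cells were clustered without class II genes, the largest group of wild-type Clec4f-negative macrophages (572 cells, 47.6%) fell in cluster 5, led by Marcksl1, Sdc4 and Tnf. Only 76 knockout cells (6.27%) did. Most knockout cells (740, 61.1%) fell in cluster 1, led by Negr1, Ccr2 and Ms4a4c, which held 276 wild-type cells (23.0%). Ccr2 is the chemokine receptor of recruited monocytes. These leading genes were read after the clusters had been made, and a cluster mostly of 1 library may be that library rather than a type.

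Class II RNA differed between those clusters within the wild type, with 22950.4 CPM in cluster 1 and 8669 CPM in cluster 5. Within cluster 1 the knockout was lower, at 18133 CPM, a log2 ratio of -0.34 (-0.35 to -0.33). Within cluster 5 it was higher, at 10875 CPM (0.33, 0.30 to 0.36). In cluster 13, led by Atp6v0d2, Cacna1a and Fat3, it stood at 3843 and 5515 CPM (0.52, 0.48 to 0.56), with 14.8% and 14.9% of the cells. When knockout clusters were given the shares they had among wild-type cells, an alternative chosen after seeing the data, the ratio of the sum over Clec4f-negative macrophages was 0.13 instead of 0.47. That of H2-Aa was then 0.22, that of Cd74 0.03 and that of Ciita 0.90.

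Of Kupffer cells, 73.8% and 55.6% fell in cluster 8, led by the resident genes Marco, Cxcl13 and Timd4. Within it the sum stood at 2873 and 5137 CPM, a ratio of 0.84 (0.80 to 0.87). In cluster 13 the 31 and 25 Kupffer cells had 2193 and 5594 CPM. In cluster 27, with 3 wild-type and 47 knockout cells, the values were 10132 and 9709 CPM. At wild-type shares of clusters the Kupffer ratio was 0.60, and that of Ciita 1.12.

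**Figure D4:**
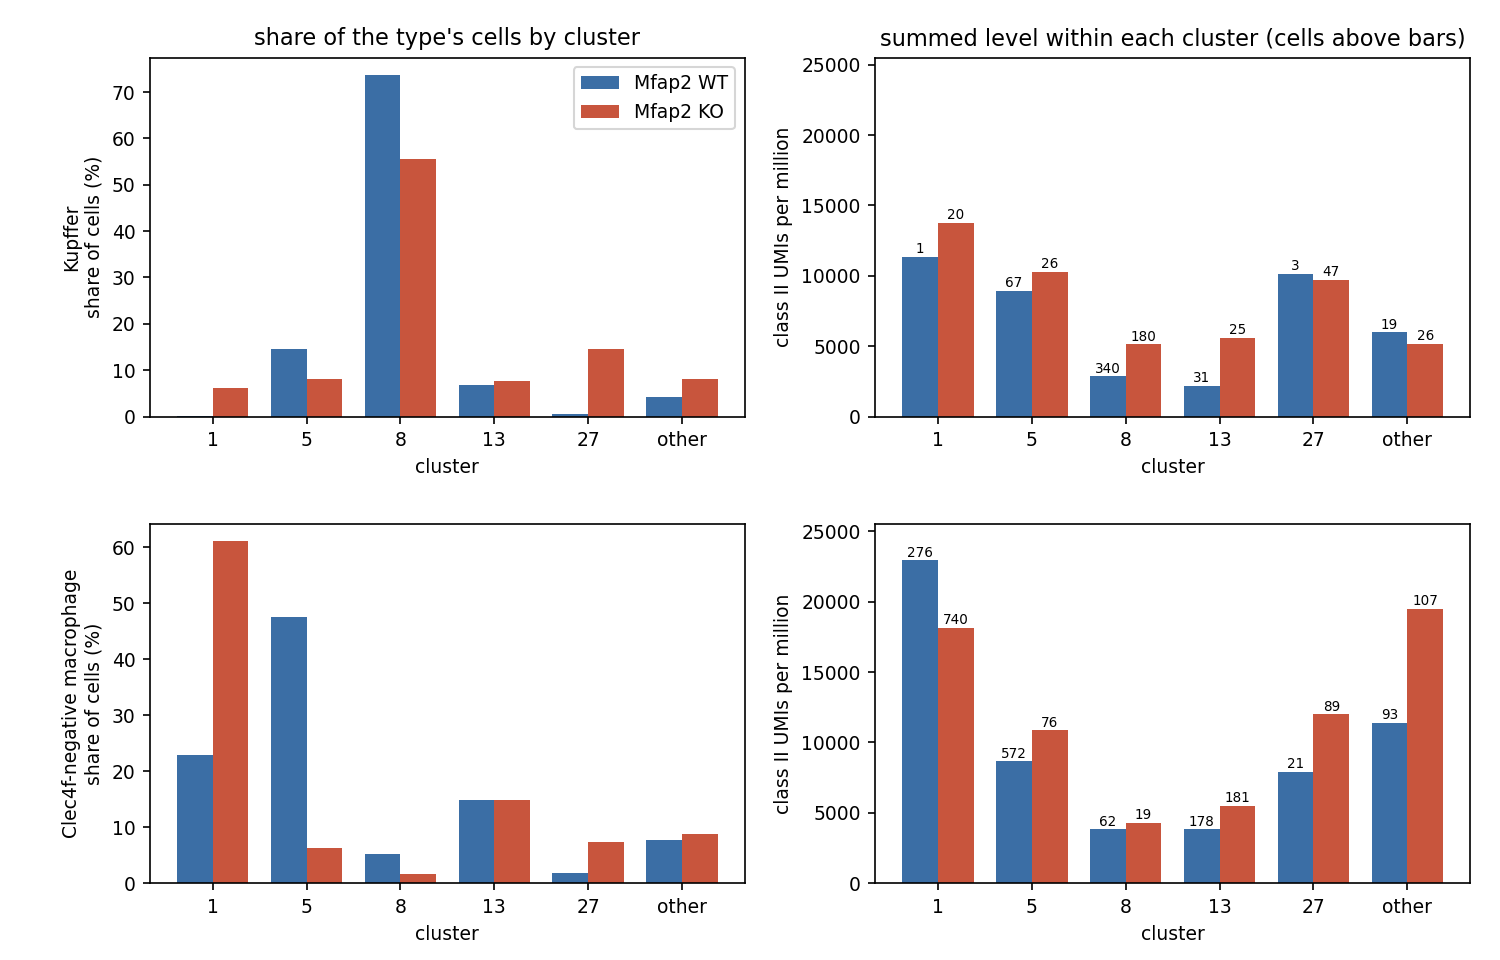
Share of cells (%, left) and summed class II level in UMIs per 1000000 (right) by cluster, for Kupffer and Clec4f-negative macrophages of both libraries, with cell numbers above the bars. Cluster 1 holds 23.0% of wild-type and 61.1% of knockout Clec4f-negative macrophages and has their highest class II level of the clusters drawn singly, and Kupffer cluster 8 is higher in the knockout at 5137 against 2873.

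Markers of the other class II cells were checked in the macrophages. All 6 cDC2 markers together stood at 19.3 and 32 CPM in Clec4f-negative macrophages, against 968 and 825 CPM in cDC2. Cd209a, a lectin among these markers, stood at 0.17 and 1.54 CPM. Of Clec4f-negative macrophages, 5 wild-type and 22 knockout cells fell in cluster 15, where most gated cells were cDC2. Their class II sum stood at 31073 and 32232 CPM. The 7 B cell markers stood at 72.9 and 124 CPM in Clec4f-negative macrophages, against 6618 and 6943 CPM in B cells and 52.5 and 99.5 CPM in T and NK cells. Cells that passed the B cell gate and another entered no type, so a low level outside B cells was partly set by the gates. The 7 cDC1 markers stood at 681 and 957 CPM, against 4155 and 4072 CPM in cDC1. In Kupffer cells these 3 lists stood at 16.6 and 21.5, 73.7 and 117, and 729 and 1002 CPM in the same order, with 1 cDC2 marker at 0 in the wild type. The Kupffer list itself summed to 9339 and 6565 CPM in Kupffer cells. The part of these differences in the class II ratios was not tested.

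H2-DMa and H2-DMb1 had smaller ratios than the chains in macrophages, while H2-DMb2, on 72 and 138 UMIs, had 0.61 (0.19 to 1.04) in Clec4f-negative macrophages. H2-DMa, the H2-M alpha chain, stood at 107 and 144 CPM in Kupffer cells, a log2 ratio of 0.43 (0.26 to 0.59). Over the alternatives run, this ratio ranged from -0.75 to 0.58. In Clec4f-negative macrophages H2-DMa stood at 160.2 and 217 CPM (0.44, 0.35 to 0.52). H2-DMb1 stood at 94.7 and 135 CPM in Kupffer cells (0.52, 0.35 to 0.69) and at 179 and 226 CPM in Clec4f-negative macrophages (0.34, 0.26 to 0.42). None of the 4 values of H2-DMa and H2-DMb1 reached 1.5-fold. In T and NK cells H2-DMa had a ratio of 0.08 (-0.13 to 0.29), from 37.3 and 39.4 CPM. H2-DMb1 had a ratio of 0.40 there and H2-DMb2 one of 0.19.

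In cDC1, cDC2 and B cells every H2-M gene had a log2 ratio below 0, none as low as 1.5-fold. H2-DMb1 stood at 546 and 382 CPM in cDC2, a ratio of -0.52 (-0.68 to -0.35), and at 577 and 483 CPM in cDC1. Over the alternatives run, the cDC2 ratio of H2-DMb1 ranged from -0.55 to 0.25 and that of H2-DMa from -0.30 to 0.25. H2-DMb2 stood at 308 and 228 CPM in B cells, a ratio of -0.44 (-0.54 to -0.33). H2-DMa stood at 208 and 185.5 CPM there. In migratory dendritic cells H2-DMa (0.73, -0.16 to 1.68) and H2-DMb1 (1.09, -0.05 to 2.37) were higher, with intervals that include no difference.

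Which H2-M beta gene was counted depended on the cell type. The share of H2-DMb2 among UMIs of both beta genes, each counted at its 3′ end, was 65.8% (63.5 to 68.0) in wild-type and 62.1% (60.3 to 63.8) in knockout B cells. In cDC2 it was 20.8% (17.5 to 24.4) and 25.6% (23.1 to 28.2), and in cDC1 9.74% and 8.8%. Kupffer cells had 5.01% and 5.12%, and Clec4f-negative macrophages 3.28% and 3.93%. The order of B cells, cDC2, cDC1 and macrophages was the same in both libraries. The transcripts of the 2 genes are 96.0% identical over 1045 aligned bases. Of the 411 windows of 90 bases in the last 500 bases of H2-DMb1, 52 (12.7%) also occur in H2-DMb2, and none of those of H2-DMb2 occurs in H2-DMb1. How the counting assigned reads from shared stretches is not known, so the split between them is uncertain.

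The H2-O genes were B cell and dendritic cell genes. H2-Ob, the beta chain, stood at 260.4 and 261 CPM in B cells, 97.1 and 95.5 CPM in cDC1 and 1.78 and 6.65 CPM in Kupffer cells. H2-Oa, the alpha chain, stood at 123 and 90.3 CPM in B cells, a ratio of -0.45 (-0.62 to -0.28). In cDC2 it stood at 178 and 132 CPM (-0.43, -0.72 to -0.13). In cDC1 it stood at 96.6 and 59.4 CPM (-0.70, -1.02 to -0.39), the only member of cDC1 past 1.5-fold. With cells thinned before gating, this cDC1 value turned to 0.72 on 19 and 23 cells.

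H2-O made up 36.2% (34.7 to 37.7) and 38.9% (37.8 to 40.0) of the UMIs of H2-O and H2-M together in B cells. In cDC2 the share was 19.7% and 19.0%, and in cDC1 14.6% and 14.1%. Kupffer cells had 2.03% and 2.85% and Clec4f-negative macrophages 2.66% and 3.06%. T and NK cells had 22.4% and 21.5%, above both macrophage types. Within H2-O, the share of H2-Ob in B cells was 67.9% (65.4 to 70.3) and 74.3% (72.7 to 75.9).

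**Figure D5:**
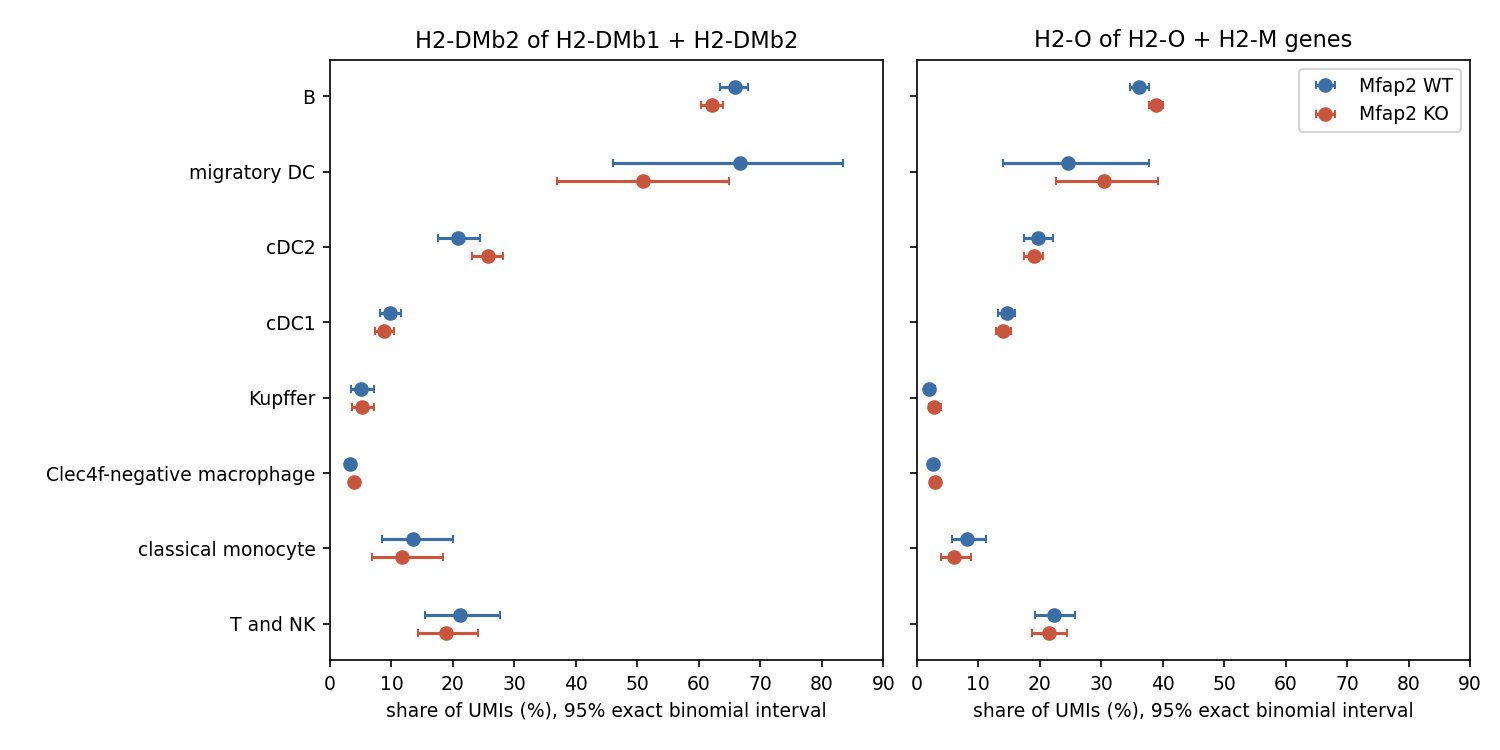
Share of UMIs (%) that came from H2-DMb2 among both H2-M beta genes, and from H2-O among H2-O and H2-M, by cell type and library, with 95% exact binomial intervals. B cells lie highest among the types with narrow intervals, at 65.8% and 62.1% for H2-DMb2 and at 36.2% and 38.9% for H2-O, and both macrophage types lie at or under 5.12% in each panel.

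Ciita, the master regulator, was the member with the most different ratio in B cells. It stood at 64.5 CPM in wild-type B cells (235 UMIs) and 113.9 in the knockout (931 UMIs), a log2 ratio of 0.82 (0.61 to 1.03). In Kupffer cells it stood at 11.8 and 29.3 CPM on 66 and 132 UMIs, a ratio of 1.31 (0.88 to 1.76). In Clec4f-negative macrophages it stood at 25.8 and 57.9 CPM on 306 and 863 UMIs, a ratio of 1.17 (0.98 to 1.36). In cDC1 it was level at 137 and 140.2 CPM (0.04, -0.20 to 0.27), and in cDC2 at 166 and 170.4 CPM (0.04, -0.25 to 0.33). Over the alternatives run, its ratio ranged from 0.67 to 0.86 in B cells, 1.08 to 1.42 in Kupffer cells and 0.90 to 1.29 in Clec4f-negative macrophages.

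Among the 10 members the ratios of B cells thus went apart, with Ciita higher and the others level or lower, down to -0.45 for H2-Oa. H2-Eb2, a class II beta chain gene outside the 10, was higher in knockout B cells, at 0.49 (0.29 to 0.69). Ciita spans 48.4 kb, and the median ratio of all genes of 30 to 70 kb was 0.16 in B cells, 0.14 in Kupffer cells and 0.21 in Clec4f-negative macrophages. Of those genes, 13.2%, 16.0% and 18.8% were at least 1.5-fold higher. Dexi overlaps Ciita on the opposite strand, and stood at 15.4 and 22.3 CPM in B cells (0.54, 0.10 to 0.99). Without the strand of the counting, reads from these genes cannot be told apart. The part of gene span and of Dexi in the Ciita ratio was not tested.

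Few cells had a Ciita UMI. At 1000 UMIs per cell, 7.01% (5.47 to 8.84) of wild-type and 8.93% (7.56 to 10.5) of knockout B cells had one, with intervals that overlap. Before thinning the shares were 20.5% and 35.9%, at median depths of 3568 and 4888.5 UMIs. T and NK cells had 0.0733% and 0.465% thinned. At 2000 UMIs the B cell shares were 11.3% (9.34 to 13.6) and 19.0% (17.1 to 21.04), which lay apart.

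Cd74 was not in fixed proportion to the chains. Its share of the UMIs of Cd74, H2-Aa, H2-Ab1 and H2-Eb1 was 52.8% and 51.2% in B cells, 42.4% and 41.5% in cDC1, and 41.9% and 40.2% in cDC2. In Kupffer cells it was 52.1% (51.4 to 52.8) and 48.0% (47.4 to 48.6), and in Clec4f-negative macrophages 48.4% (48.1 to 48.7) and 43.6% (43.4 to 43.8). The macrophage shares were lower in the knockout. T and NK cells had 45.3% and 41.6%.

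In monocytes and endothelium the genotype difference could not be read apart from free RNA. In patrolling monocytes, which crawl along vessel walls, H2-Eb1 stood at 171 and 357 CPM (1.06, 0.91 to 1.20) and Cd74 at 413 and 715 CPM (0.79, 0.70 to 0.89). T and NK cells had 158 and 285 CPM for H2-Eb1 and 355 and 547 CPM for Cd74. The ratio of the sum in patrolling monocytes was 0.84 (0.78 to 0.90), and 1.52 with the T and NK level subtracted. Their richest 5 cells held 16.5% and 17.98% of the class II UMIs before thinning, and 1 of 532 wild-type cells had at least 10 at 1000 UMIs. Of 10 members 5 were at least 1.5-fold higher, where 16.5% of all genes were, and none was lower, where 8.11% were.

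Classical monocytes had a smaller ratio of the sum, 0.32 (0.26 to 0.39), which turned to -1.03 with the T and NK level subtracted and was 1.27 with cells thinned before gating. Cd74 stood at 528 and 687 CPM there, and H2-DMa at 83.2 and 94.7 CPM, above the 37.3 and 39.4 CPM of T and NK cells. Ciita was past 1.5-fold higher and H2-Oa past it lower, 1 member each way, where 17.2% and 5.57% of all genes were. Sinusoidal endothelial cells had H2-Ab1 at 135 and 207 CPM (0.61, 0.44 to 0.78) and Cd74 at 322 and 462 CPM (0.52, 0.41 to 0.63). H2-Ab1 and Ciita were past 1.5-fold there, 2 of 10 members where 12.2% of all genes were, and none was lower, where 13% were. In vascular endothelial cells 5 of 6 members tested were higher, where 13.3% of all genes were, and none lower, where 12.7% were.

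Other genes of the pathway were followed by list in Kupffer cells and Clec4f-negative macrophages. Of 12 regulators of class II transcription (RFX and NF-Y subunits, Creb1 and lineage factors such as Spi1), 1 was higher and 1 lower past 1.5-fold in Kupffer cells, where 16.8% and 7.62% of all genes were. These were Irf4 at 3.92 and 6.43 CPM and Rfx5, a DNA-binding RFX subunit, at 7.13 and 4.43 CPM, both with intervals that include no difference. In Clec4f-negative macrophages Irf4 (3.79 and 8.79 CPM) and Pax5 were higher, 2 of 12 where 18.1% of all genes were. Pax5 is also a B cell gate marker, and the sum of those markers was higher in knockout T and NK cells too. The list medians in Kupffer cells and Clec4f-negative macrophages, 0.05 and 0.13, lay beside 0.08 and 0.13 over all genes. In B cells 0 of 12 passed, where 13.8% of all genes were higher and 5.9% lower, with a median of 0.06 beside 0.10.

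Of 8 genes for endosomal proteases and the thiol reductase Ifi30, none passed in Kupffer cells (median -0.19). In Clec4f-negative macrophages only the cathepsin gene Ctsl did, where 5.66% of all genes were lower, at 386 and 227 CPM (-0.77, -0.83 to -0.70), with a list median of -0.22. Of 9 genes of costimulation, surface turnover and checkpoint ligands, 3 were higher (Cd86, Cd80 and Icosl) and 1 lower (Pdcd1lg2) in Kupffer cells, where 16.8% and 7.62% of all genes were, with a median of 0.30 beside 0.08. In T and NK cells 4 of these 9 were higher, where 15.7% of all genes were, with a median of 0.49 beside 0.13. Cd86, which binds CD28 on T cells, stood at 701 and 1251 CPM (0.84, 0.78 to 0.90) and Cd80 at 56.5 and 86.9 CPM (0.62, 0.40 to 0.84). In Clec4f-negative macrophages Cd86 (782 and 1305 CPM), Cd80 and Cd83 (1154 and 1842 CPM) were higher, 3 of 9 where 18.1% of all genes were, with a median of 0.40 beside 0.13. Cd83 holds class II at the surface by opposing the ligase March1. In T and NK cells Cd86 stood at 66.2 and 137 CPM, higher in the knockout as well, and whether this was free RNA was not tested.

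The interferon-gamma signal induces Ciita in macrophages. Of its 7 genes none passed in Kupffer cells, where 16.8% of all genes were higher, with a median of 0.30 beside 0.08. Only Jak1 (547 and 937 CPM), 1 of 7, did in Clec4f-negative macrophages, where 18.1% were, with a median of 0.25 beside 0.13. Of 10 genes of MHC class I presentation only Nlrc5, the class I relative of Ciita, passed in either macrophage type, 1 of 10 beside 16.8% and 18.1% of all genes. It stood at 16.9 and 33.9 CPM in Kupffer cells (1.001, 0.62 to 1.39) and 20.3 and 38.1 CPM in Clec4f-negative macrophages (0.91, 0.69 to 1.13). The class I list medians were 0.15 and -0.03.

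Across 32 profiles, 16 cell types in each library, the members' log2(CPM + 1) varied together. Pearson's r with the mean of the standardised members ran from 0.855 for H2-Ob to 0.973 for H2-Ab1, and was 0.969 for Ciita. Each member is itself part of this mean, which raises its r, so these values cannot be set beside those of other genes. The members split by pair: H2-DMa and H2-DMb1 had r = 0.972 with each other, and H2-DMb2 had r = 0.925 with H2-Ob and 0.704 with H2-DMb1. Of the genes outside the 10, Gm20513 was most alike (r = 0.957). It is an antisense transcript that overlaps H2-Eb1, so without the strand of the counting their reads cannot be told apart. Pkib (0.870), Cd83 (0.869), Wdfy4 (0.858, itself a cDC1 gate marker) and Cd180 (0.844) came next, then Gm15232, Slc9a7, 6030468B19Rik, Icosl and Fgd2 (0.813 to 0.7999). The profiles of a library share its free RNA and depth, so these values are a description.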

How the data were processed

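The authors deposited raw UMI counts per gene and cell barcode, and the file headers name Cell Ranger 7.0.1. The submitters' processing notes name Cell Ranger 3.1.0, Seurat and mm10. Libraries were Chromium 3′ v3, per the labels' protocols. Intron and strand settings are not given in the sources used here. Of the 32285 gene identifiers, 32158 matched GENCODE M21, used for positions and spans.

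Barcodes with under 200 genes or over 20% mitochondrial UMIs were dropped (413 and 149, wild type first). The highest Scrublet scores were removed at 0.8% per 1000 cells (1034 and 1295 cells). The automatic threshold marked 1 and 727, so it did not work in the wild type. Total UMIs were 82499307 and 118226367, and the lowest cell total was 500.

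A cell entered a type when it had a UMI of at least a set number of that type's markers (4 of 7 for B cells and cDC1, 2 of 6 for cDC2, 6 of 8 for macrophages, 3 of 8 for T and NK cells). Macrophages also needed at least 25 C1q UMIs per 10000, and 298 and 292 cells lay between 20 and 30. Kupffer cells also needed 3 Kupffer markers and 2 Clec4f UMIs. Gate thresholds were set after viewing marker levels. Cells that passed several gates (455 and 769) or none (2316 and 2163) entered no type, nor did 210 and 281 macrophages between the 2 kinds.

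UMIs were summed per type and library and scaled to 1000000, with exact Poisson, Clopper-Pearson and conditional ratio intervals at 95%. Shares of cells and per-cell counts used cells thinned to 1000 UMIs, unless given as unthinned or at 2000 UMIs. Shares among genes and the part of UMIs held by the richest cells used all UMIs, without thinning. Clusters came from Leiden at resolution 2 on 30 components, 15 neighbours and 2000 variable genes without class II genes. Likeness was Pearson's r of log2(CPM + 1) over genes with at least 100 UMIs. The ratio steps were tested on simulated data. The members, gene lists and rule for named genes (members, list genes, type markers, Mfap2 and the 10 genes most alike) were chosen with earlier results of these data known. Python 3.11.15, scanpy 1.11.5, numpy 2.4.6, scipy 1.17.1 and pandas 2.3.3 were used.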

Additional observations from a re-analysis of the deposited data

Results flagged for a closer look

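The summed class II ratio of knockout over wild type was positive in both macrophage types and negative in B cells, cDC1 and cDC2. It was also positive in T and NK cells, neutrophils and patrolling monocytes, and larger there than in Clec4f-negative macrophages. The Kupffer ratio exceeded that of B cells by 0.92, that of cDC1 by 0.92 and that of cDC2 by 0.97 on the log2 scale. The ratio of Clec4f-negative macrophages exceeded that of B cells by 0.59, that of cDC1 by 0.58 and that of cDC2 by 0.63. Each library is the single sample of its genotype, so the opposite directions drew attention and the differences were not tested. The part of the macrophage cluster mix, of gene span and of free RNA in these differences was not tested.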

How the results depend on the processing

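With 1 library per genotype, no alternative measures the spread between animals, and depth limits Ciita, H2-Oa, H2-Ob and H2-DMb2 outside B and dendritic cells. No paired analysis was possible because each genotype had 1 library and no replicate pairs. Values are log2 ratios of the class II sum, then the level of Clec4f-negative macrophages over Kupffer cells and of sinusoidal cells over T and NK cells. Of such values under alternatives, 43 stayed within their counting interval, 60 moved and 2 turned direction. Of the other values, 1165 stayed, 333 moved, and 4 that were past 1.5-fold with an interval clear of 0 turned. Counting changes of sign at any size, 102 of the 1490 other log2 ratios turned, 24 of them under thinning before gating and 22 with a main interval clear of 0.

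With 1 marker more per gate, B cells gave -0.0896, Kupffer cells 0.94 and Clec4f-negative macrophages 0.46, with folds of 2.97 and 2.13 over Kupffer cells and 0.98 and 0.97 over T and NK cells (wild type, knockout). With the T and NK level subtracted, B cells gave -0.19, cDC1 -0.15, cDC2 -0.20, Kupffer cells 0.83, Clec4f-negative macrophages 0.45 and patrolling monocytes 1.52, with folds of 3.31 and 2.54; sinusoidal cells of the knockout lay below that level and gave no value. The automatic Scrublet threshold gave -0.10 in B cells, 0.76 in Kupffer cells, 0.94 in patrolling monocytes and 0.26 in sinusoidal cells, with folds of 2.68 (wild type) and 0.90 (knockout). With no doublets removed, Kupffer cells gave 0.75, patrolling monocytes 0.998 and sinusoidal cells 0.30, with a wild-type fold of 2.68. Types by cluster gave -0.0921 in cDC1, 0.0771 in cDC2, which turned direction, 0.72 in Kupffer cells, 0.36 in Clec4f-negative macrophages and 0.54 in patrolling monocytes, with folds of 3.65, 2.84 and 0.96. Thinning to 1000 UMIs before gating, which left 38 and 32 Kupffer cells, gave -0.14 in B cells, -0.0145 in cDC1, -0.28 in cDC2, 1.04 in Kupffer cells and 0.45 in Clec4f-negative macrophages, with folds of 2.94, 1.96 and 1.23, and of 1.13 for knockout sinusoidal cells, which turned direction. The same thinning turned H2-Oa in cDC1 to 0.72, H2-DMb2 in Clec4f-negative macrophages to -0.54, and H2-Ab1 and H2-Eb1 in scar-associated macrophages (27 and 16 cells) to -0.66 and -1.08. At wild-type shares of clusters, an alternative added after seeing the data, Kupffer cells gave 0.60 and Clec4f-negative macrophages 0.13. The mean of per-cell values gave -0.16 in cDC1, 0.42 in Clec4f-negative macrophages and 0.73 in patrolling monocytes, with folds of 2.92 and 0.92. Scaling by the median of ratios gave -0.17 in B cells, -0.21 in cDC1, 0.73 in Kupffer cells, 0.38 in Clec4f-negative macrophages and 0.51 in sinusoidal cells. Without the 5 richest cells, cDC2 gave -0.13, Kupffer cells 0.83, Clec4f-negative macrophages 0.48 and sinusoidal cells 0.53, with folds of 2.96, 2.32, 0.97 and 0.96. Where the construction of an alternative does not show it, the cause was not tested.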

Other observations

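H2-Eb2, a beta chain gene related to H2-Eb1 and not among the 10, stood at 76.0 CPM in wild-type and 107 CPM in knockout B cells, a log2 ratio of 0.49 (0.29 to 0.69). In cDC1 it stood at 4.22 and 17.7 CPM on 8 and 47 UMIs, a ratio of 2.06 (0.97 to 3.36), and in cDC2 at 41.2 and 32.7 CPM. Gm20513, antisense to H2-Eb1, stood at 12.5 and 33.0 CPM in Kupffer cells and 33.8 and 66.5 CPM in Clec4f-negative macrophages.

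Plasma cells (30 and 34 cells), which leave the B cell programme, had a summed class II level of 3229.9 and 3948 CPM, and Cd74 made up 75.2% and 71.8% of the UMIs of Cd74 and the 3 chains. Neutrophils (1034 and 887 cells) had 1034 and 2097 CPM, a ratio of 1.02 (0.96 to 1.08), beside 862 and 1405 CPM in T and NK cells. Cholangiocytes, the bile duct cells (83 and 70 cells), had 937 and 1208 CPM.

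Ifng, the gene of interferon-gamma, was lower in knockout T and NK cells, at 612 and 439 CPM, a ratio of -0.48 (-0.54 to -0.42). This gene was looked up after the class II values had been seen. The gate pools T and NK cells, and the part of their mix in this ratio was not tested.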
